A study of Drosophila melanogaster with 4 samples.

Results

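Midline glia were examined here as 342 barcodes of 93931 that passed the depth and mitochondrial limits (109582 barcodes in all) in 4 droplet libraries of dissociated whole OregonR embryos. OregonR is a wild-type strain, all groups share it, and each library pooled embryos of a range of ages. Early libraries came from stage 10-12 embryos (5 h collection, 12 h aging) and late libraries from stage 13-16 embryos (7 h collection, 9 h aging), with 2 independent samples each. Early embryos were aged at a lower temperature than late embryos, which were kept at room temperature. Values are given throughout in the order early replicate 1, early replicate 2, late replicate 1 and late replicate 2. The paper ordered cells by their RNA along development (pseudotime). By that ordering, it reports late replicate 2 as enriched for younger embryos and late replicate 1 for older ones. A barcode was taken as midline glia when it held at least 1500 unique molecular identifiers (UMIs, 1 per captured RNA molecule), at most 25% mitochondrial UMIs, a UMI of at least 3 of wrapper, sim, Ect3, Oatp26F and tsl, at least 0.1% of its UMIs in these 5 genes together, and no UMI of repo, the homeodomain gene of lateral glia. The members numbered 58, 16, 116 and 152 in the 4 libraries.

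In the fly embryo, midline glia arise from the mesectoderm, a strip of cells at the ventral midline that is specified by the bHLH-PAS protein Single-minded together with its partner Tango. They contact and ensheathe the commissural axons, which cross between the sides of the nerve cord, and they secrete Slit, which repels axons carrying Robo receptors, and Netrins, which attract axons carrying Frazzled. Their number falls by programmed cell death as the cord matures, and the survivors depend on ligands of the epidermal growth factor (EGF) receptor.

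The 5 genes that chose the members are described first, without a test. wrapper, which encodes an immunoglobulin-superfamily membrane protein (BDGP6.54 annotation, chromosome arm 2R, 22379637 to 22382675, plus strand), had a UMI in 326 of the 342 members and Ect3, a beta-galactosidase-like gene (3R, 11999278 to 12003516, plus strand), in 316. Oatp26F, an organic anion transporter gene (2L, 6625138 to 6632407, minus strand), was present in 244 and tsl, which encodes a secreted protein of the terminal patterning pathway (3R, 21778114 to 21782536, minus strand), in 221. sim (3R, 13057755 to 13078124, plus strand) was the least often detected, in 153 members. All 5 are annotated as protein coding.

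Levels are given as CPM, the UMIs of a gene summed over all members of a library and scaled by their total UMIs, so that deep members weigh most. wrapper stood at 929, 1599, 1669 and 1969 CPM in the members. tsl stood at 66.4, 255, 363 and 316 CPM, and sim at 207, 183, 109 and 107 CPM. Ect3 stood at 2251, 1273, 1093 and 1456 CPM. Among all other passing barcodes each of the 5 genes was at 31.8 CPM or less in every library. Since these genes chose the members, no stage difference is read from them.

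Of the members, 173 (50.6%) sat at the rule's limit of 3 genes. By number, 173 held 3 of the 5 genes, 104 held 4 and 65 held all 5. In slit (sli), which the rule did not use, these sets stood at 924, 1895 and 3881 CPM over the joined libraries. Just outside the rule, 290 barcodes with 2 of the genes stood at 464 CPM of sli, 413 barcodes with 3 or more genes that made up under 0.1% of their UMIs stood at 271 CPM, and 33 barcodes with a UMI of repo stood at 1973 CPM. All 33 came from the late libraries, 8 from replicate 1 and 25 from replicate 2. The proportion of UMIs in the 5 genes ranged from 0.102% to 2.00% of a member, with a median of 0.255%.

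**Figure D1:**
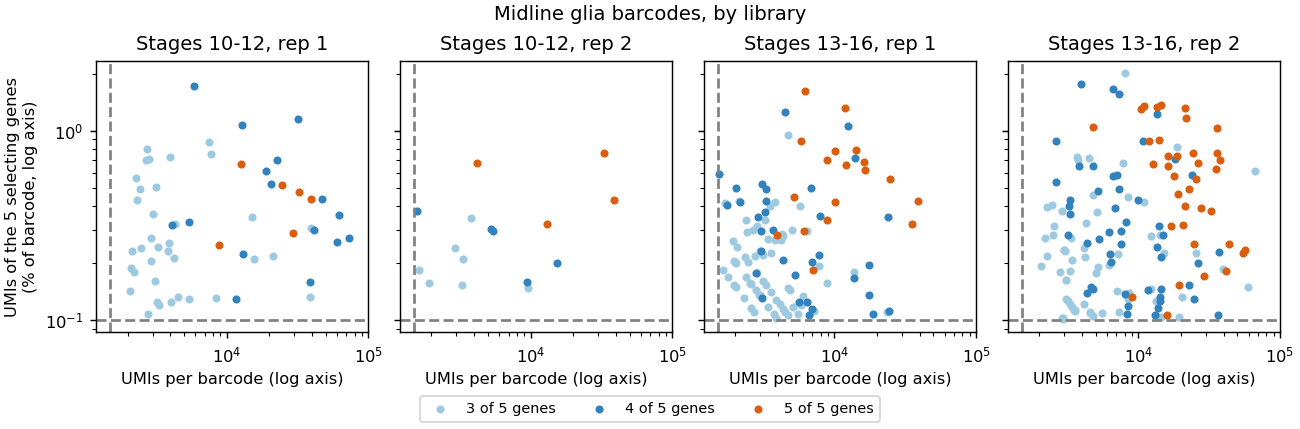
Each point is 1 midline glia barcode, with its UMIs on the x axis and the percentage of these in the 5 selecting genes on the y axis (both log axes), colored by how many of the 5 genes it holds. Dashed lines mark the limits of 1500 UMIs and 0.1%, and members with all 5 genes lie mainly among the deeper barcodes.

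The members were deeper than the libraries they came from. Their median depth was 5434, 4723, 4007 and 8110 UMIs, against 3353, 2363, 2849 and 5243 UMIs in all passing barcodes. The deepest member held 8.49%, 25.5%, 5.18% and 3.36% of the members' UMIs. A caller based on simulated pairs of barcodes marked 125 of the 342 members (36.5%) as doublets, against 14.3%, 8.28%, 24.0% and 28.5% of all passing barcodes of the libraries. By library, it marked 20 of 58, 3 of 16, 42 of 116 and 60 of 152 members. Among lateral glia, the repo-positive class described below, it marked 51 of 205, 8 of 68, 110 of 354 and 555 of 1352 barcodes. The marked members held between 18.3% and 49.8% of the members' UMIs of a library, with median depths of 19680, 9492, 5906 and 11287 UMIs against 4176, 3776, 3262 and 7080 UMIs in the others. The libraries shared between 94 and 389 barcode sequences with each other. Total depth per library ranged from 71622535 to 394684653 UMIs.

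Midline glia made up 0.324% (95% Clopper-Pearson interval 0.246% to 0.419%), 0.154% (0.0883% to 0.251%), 0.386% (0.319% to 0.463%) and 0.427% (0.362% to 0.4998%) of passing barcodes, where the intervals cover counting error only. Both late proportions lay above both early ones. The mean difference was 0.167 percentage points (late 0.406% ± 0.0287, early 0.239% ± 0.120, SD, n = 2 each), with an exact two-sided permutation p of 0.333, the smallest that 2 against 2 libraries can give. The difference in the share of barcodes that are midline glia was 0.0818 points without early replicate 2 and 0.252 points without early replicate 1. In a dissociated sample, fewer cells of a type and less RNA per cell cannot be told apart, since both change how many barcodes reach the limits.

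To find what set midline glia apart from the rest of the embryo, edgeR was run on per-library sums of the members and of all other passing barcodes, with the library as a block. Of 9667 genes tested, 688 (7.12%) were called higher and 1391 (14.4%) lower in midline glia at an adjusted p of 0.05, and the median log2 difference over all genes tested was -0.19. The genes that selected the members were left out of these counts.

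Among 6 regulators of midline development, 4 were higher, none was lower and 2 were not called, with a median log2 difference of 1.75. D (Dichaete), a Sox-family factor, stood at 1065, 1103, 314 and 431 CPM in the members and between 38.6 and 110.5 CPM in other cells, a log2 difference of 3.06 ± 0.17 (SE, edgeR adjusted p = 1.0e-05). oc (ocelliless), a homeodomain gene, stood at 586, 601, 514 and 465 CPM against 42.4 to 52.5 CPM (log2 3.51 ± 0.15). The POU-domain factor gene vvl (ventral veins lacking) stood at 1559, 1919, 1477 and 1840 CPM against 329 to 739 CPM, and the receptor gene Tl (Toll) at 631, 392, 428 and 380.0 CPM against 89.6 to 183 CPM. For all 4 genes, every midline value lay above every value of the other cells, and vvl was at a log2 difference of 1.09 after thinning, in which every barcode was drawn down to 1500 UMIs. A single late member held 7.20% of the members' vvl UMIs, with 459 UMIs of vvl and 16 of slit (sli). tgo, which encodes Single-minded's partner and is transcribed broadly, was not called at 80.3, 104, 53.0 and 93.4 CPM against 45.3 to 94.4 CPM.

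Of 11 genes of Slit, Robo and Netrin guidance 5 were higher in midline glia, 2 were lower and 4 were not called, with a median log2 difference of 0.40. sli, the gene of the Robo ligand Slit, stood at 1925, 3009, 2158 and 2528 CPM in the members and at 145, 106, 147 and 197 CPM in other cells. This was a log2 difference of 3.99 ± 0.17 (edgeR adjusted p = 3.0e-06), and 296 of the 342 members held a UMI of sli. The midline values did not overlap those of other cells. In early replicate 2, members of 33138 and 39106 UMIs held 192 and 173 UMIs of sli, and no other member held over 24. After thinning every barcode to 1500 UMIs, 72.4%, 62.5%, 65.5% and 73.7% of members held a UMI of sli, against 6.63%, 0%, 7.27% and 12.6% of plasmatocytes, a blood cell class used as the level of background. The proportion was 17.7%, 10.1%, 16.4% and 22.4% in all other passing barcodes. In lateral glia, the repo-positive class described below, it was 25.9%, 17.6%, 25.1% and 29.7%. Before thinning, 91.4% of the members of early replicate 1 held one.

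Both Netrin genes were higher as well. NetA stood at 219, 268, 571 and 509.9 CPM against 38.6 to 54.3 CPM (log2 2.89 ± 0.24), and NetB at 362, 986, 919 and 775 CPM against 46.2 to 70.2 CPM (log2 3.53 ± 0.27, edgeR adjusted p = 7.4e-05). The members of 33138 and 39106 UMIs in early replicate 2 held 86 and 43 UMIs of NetB, and no other member there held over 7. The gene of the Netrin receptor Frazzled, fra, was not called, at 131 to 179 CPM in the members and 129 to 171 CPM in other cells. comm (commissureless), whose product keeps Robo from the surface of crossing axons, and its relative comm2 were higher by log2 1.38 ± 0.14 and 0.69 ± 0.16. The call for comm2 was lost without late replicate 1 (edgeR adjusted p = 0.088) and after thinning (log2 0.28, 0.62). robo2, a receptor gene, was lower at 255, 189, 346 and 176 CPM against 575, 448, 520.5 and 221 CPM (log2 -0.82 ± 0.17), and robo3 was lower at 4.57 CPM or less in every library. robo1 was not called, at 99.3 to 118 CPM against 67.8 to 88.8 CPM.

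Of 18 genes of EGF receptor signaling, 8 were higher (rho, S, Egfr, aos, pnt, aop, sty and rl), none was lower and 10 were not called, with a median log2 difference of 0.49. rho (rhomboid), the protease that releases active ligand, stood at 1461, 901, 268 and 458 CPM against 58.7, 38.8, 72.7 and 103 CPM (log2 3.27 ± 0.47, edgeR adjusted p = 0.0020). The inhibitor genes sty (sprouty), at 1141, 1319, 584 and 927 CPM, and aos (argos), at 155, 248, 238 and 344 CPM, were higher by log2 2.18 ± 0.17 and 2.30 ± 0.20. Every midline value of these 3 genes was above that of other cells in the same library, and the stages did not overlap for rho. In early replicate 2, however, a member of 39106 UMIs held 121 UMIs of rho, and no other member held over 12. The lack of overlap between the stages for rho rested on this member. The receptor gene Egfr was higher by 0.65 ± 0.19, a call that was lost without early replicate 2, late replicate 1 or late replicate 2 (edgeR adjusted p = 0.12, 0.11 and 0.11) and without the called doublets (0.15). The call for pnt, an ETS factor gene, was lost without early replicate 2 (edgeR adjusted p = 0.064) and without the called doublets (0.074). After thinning, Egfr and S were at log2 0.19 and 0.29 and not called (edgeR adjusted p = 0.68 and 0.52). The ligand gene spi was not called at 162 to 267 CPM against 112 to 234 CPM. Of the kinase chain, Dsor1, phl, Sos and drk were not called and rl, the MAP kinase gene, was higher by 0.51 ± 0.13.

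Among 9 Notch pathway genes, 4 were higher (N, fng, mam and kuz) and none lower, with kuz, the protease gene for Notch cleavage, at 817, 705, 522 and 714 CPM against 353 to 460.4 CPM (log2 0.75 ± 0.12). After thinning, kuz and N were at log2 0.46 and 0.17 and not called (edgeR adjusted p = 0.12 and 0.63). The call for N itself (log2 0.36 ± 0.10) was lost without early replicate 1, late replicate 1 or late replicate 2 (edgeR adjusted p = 0.093, 0.13 and 0.086) and without the called doublets (0.051). Of 9 cell death genes, 2 were higher and 7 were not called. hid, a death-promoting gene whose product is restrained by EGF signaling in these cells, stood at 387, 1058, 1523 and 1037 CPM against 177 to 218 CPM (log2 2.21 ± 0.24, edgeR adjusted p = 0.00053). The relatives rpr, at 26.1 to 197 CPM, and grim, at 29.1 CPM or less, were not called, and the caspase inhibitor gene Diap1 was higher by 0.36 ± 0.10. hid was higher than in other cells in all 4 libraries, least so in early replicate 1. In early replicate 2, members of 33138 and 39106 UMIs held 54 and 77 UMIs of hid, and no other member held over 10.

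Of 9 adhesion genes of axons and glia, Glec (also spelled glec, gliolectin) was the 1 called higher, at 757, 1978, 1811 and 1873 CPM against 276, 288, 389 and 434 CPM (log2 2.11 ± 0.17). Fas3 and CadN, genes of homophilic adhesion molecules, were lower by log2 -1.18 ± 0.30 and -0.73 ± 0.18. Neurexin IV, the axonal partner of Wrapper, is encoded by Nrx-IV, which was not called at 65.3 to 119 CPM against 55.6 to 139.7 CPM. Among 6 genes of fibroblast growth factor signaling 3 were lower (htl, ths and bnl), and the receptor gene btl was not called at 119.9, 13.1, 1.32 and 17.3 CPM. Of the 5 other genes of the family with Oatp26F that were tested, none was called, and the 2 tested genes of the terminal pathway with tsl, tor and clos, were at 4.66 CPM or less in every library.

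**Figure D2:**
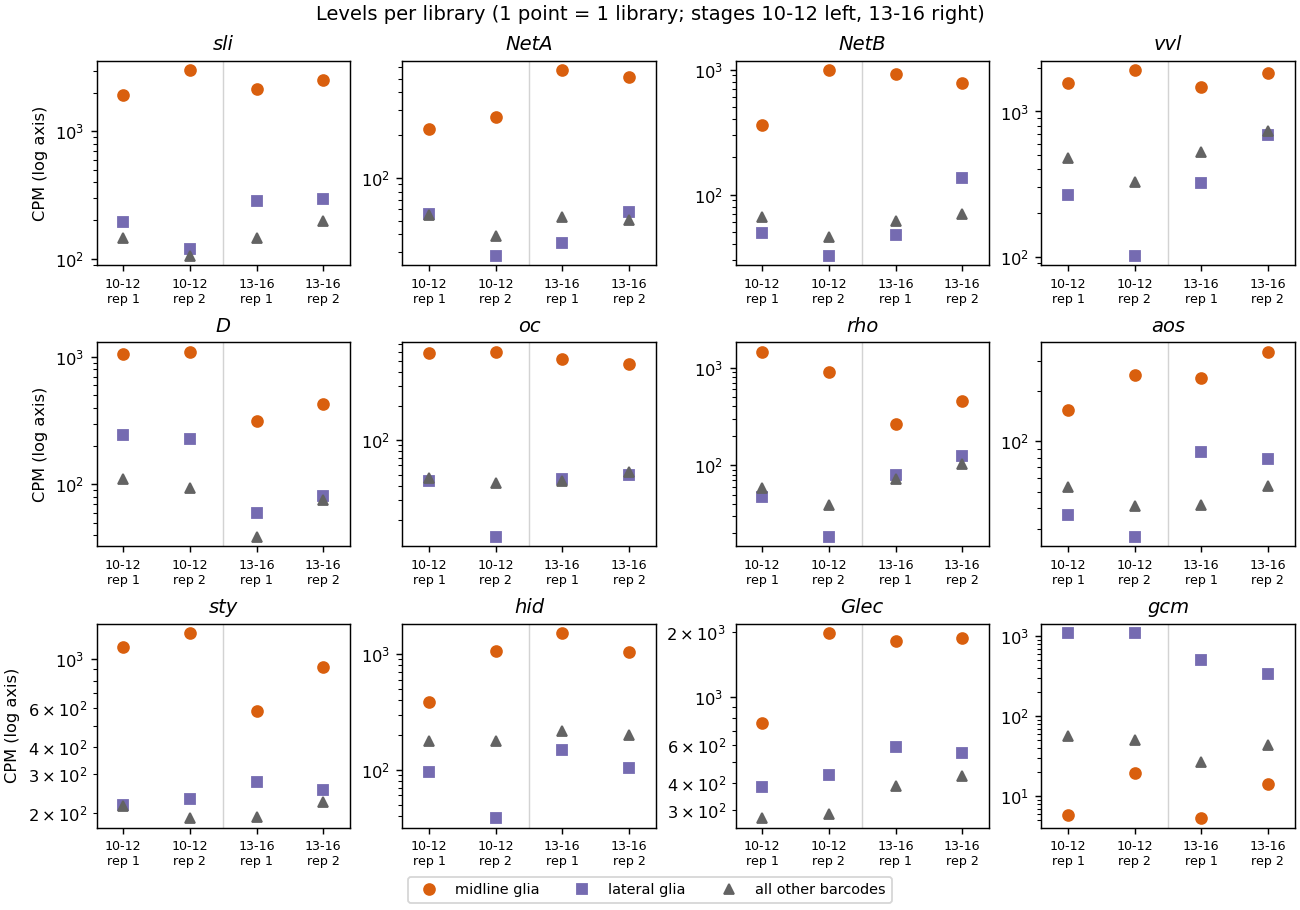
Points give the CPM (log axis) of 12 genes in midline glia (circles), lateral glia (squares) and all other passing barcodes (triangles), 1 point per library, with early libraries on the left. sli in midline glia lay between 1925 and 3009 CPM, above its values in lateral glia and other cells, whereas gcm in midline glia was at 19.6 CPM or less.

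The 10 largest rises by the naming rule were tbc, CG13083, Tsp5D, Epac, CG31145, CG30427, Pvf2, vir-1, wntD and mfas. All 10 were also called with any single library left out and without the called doublets. Some rested on few UMIs in an early library. Tsp5D stood at 1.16 CPM in members of early replicate 1 (12.9 CPM in lateral glia there). In early replicate 2, CG30427 and wntD stood at 6.53 and 19.6 CPM. tbc stood at 349, 718, 514 and 390.2 CPM against 1.63 to 6.26 CPM, a log2 difference of 6.88 ± 0.42 (edgeR adjusted p = 1.9e-05), and 199 of 342 members held a UMI of it. Epac, a cAMP-activated exchange factor gene, stood at 171, 346, 364 and 388 CPM against 4.91 to 11.2 CPM (log2 5.26 ± 0.25). mfas (midline fasciclin), a fasciclin-domain adhesion gene, stood at 1567, 1025, 639.8 and 595 CPM against 35.4, 20.3, 56.0 and 88.4 CPM (log2 4.31 ± 0.47). These 3 genes did not overlap between midline glia and other cells. Pvf2 encodes a ligand of the PDGF and VEGF receptor homolog Pvr and stood at 31.4, 32.6, 128 and 93.9 CPM against 1.00 to 6.43 CPM.

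Of the 10 largest falls by the same rule, CG13857, CG13838, lncRNA:CR43929, lambdaTry, CG15269, Nmdar2 and CG31797 had no UMI in any member, so that they were at least 2.05-fold (CG31797) to 3.27-fold (CG13857) lower than in other cells, counted against 3 UMIs over all members joined (0.803 CPM). CG13983, CG10598 and slou had 1 UMI each over all members, and slou, a homeodomain gene of muscle founders, was the 1 of the 10 still called without the called doublets (edgeR adjusted p = 0.026), though not after thinning (0.14). Leaving out early replicate 1 ended the call for CG10598 (edgeR adjusted p = 0.86), and for 7 of the others at least 1 left-out library ended it, late replicate 2 in each case. The genes without a UMI in members entered the test through other cells alone. With DESeq2, slou alone of the 10 was called (adjusted p = 0.0066). CG13838, CG13983 and CG10598 were not (DESeq2 adjusted p = 0.085, 0.30 and 0.92), and the rest received no adjusted p. Without late replicate 2, 449 genes were called higher and 917 lower. Without the library block the counts were 208 and 216, and after thinning all barcodes to 1500 UMIs they were 219 and 354.

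Lateral glia, the repo-positive glia that share the nerve cord with midline glia, were compared next and were chosen by a UMI of repo with at least 2 of gcm, loco, CG6218, zyd and nrv2, together at least 0.1% of UMIs (1979 barcodes, numbering 205, 68, 354 and 1352). Of 6392 genes tested, 417 (6.52%) were higher and 426 (6.66%) lower in midline than in lateral glia (edgeR, library as a block), with a median log2 difference over all genes of -0.04. sli, NetA, NetB and hid again separated the classes. sli in lateral glia was at 196, 120.0, 282 and 296 CPM, a log2 difference of 3.55 ± 0.26 (edgeR adjusted p = 0.00065). NetB differed by 3.64 ± 0.40 and NetA by 3.19 ± 0.33, and hid was at 38.1 to 148 CPM in lateral glia (edgeR adjusted p = 0.0023). Of the 6 midline regulators, 4 were higher, among them oc by 3.89 ± 0.30 and vvl by 2.63 ± 0.39.

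Of 17 tested EGF pathway genes, 6 were higher than in lateral glia, including Egfr (log2 1.47 ± 0.22, and 0.91 after thinning) and the ETS repressor gene aop (1.36 ± 0.23). Ras85D, the Ras gene, was lower by -0.78 ± 0.13, a call lost without late replicate 1 (edgeR adjusted p = 0.065). Of 10 basement membrane genes, 4 were higher, LanA, LanB1, LanB2 and wb, all laminin chains, and Ndg (nidogen) was lower. LanB2 stood at 186, 91.4, 279 and 447 CPM against 109, 64.9, 159 and 178 CPM, and its call was also lost without late replicate 1 (edgeR adjusted p = 0.071). Plasmatocytes held 669 to 1782 CPM of LanB2, and in late replicate 2, where LanB2 was highest in the members, the 6 plasmatocyte genes summed to 198 CPM in the members and 65.9 CPM in lateral glia; their part in the laminin differences was not tested. The neural adhesion genes Nrg and CadN were lower by -1.11 ± 0.16 and -1.72 ± 0.19.

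The largest rises over lateral glia were wntD, CG13083, Epac, tbc, CG31145, mfas, Cpr78Cb, sano, CG45263 and sog. sog (short gastrulation), a secreted antagonist of Dpp signaling, stood at 2465, 731, 444 and 285 CPM against 63.2, 9.88, 73.5 and 46.0 CPM (log2 4.00 ± 0.60, edgeR adjusted p = 0.0061). sano (serrano) stood at 437, 1129, 824 and 660.1 CPM against 8.47 to 67.6 CPM, and wntD, a Wnt-family gene, at 201, 19.6, 23.8 and 31.0 CPM against 1.51 CPM or less. None of these values overlapped between the classes. A UMI of wntD was present in 35 of the 342 members, and early other cells held 8.26 and 8.90 CPM of it.

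The largest falls against lateral glia were CG15203, rumpel, CG3841, CG32032, alrm, naz, Buffy, CG11426, NANS and CG2082. CG15203, rumpel, a glial transporter gene, and CG3841 had no UMI in any member and were at least 51.2-fold, 11.9-fold and 10.7-fold lower, the last of these no longer called without late replicate 1 (edgeR adjusted p = 0.055). alrm and naz, which are expressed in astrocyte-like glia, stood at 0, 0, 1.32 and 5.07 CPM and at 0, 0, 2.65 and 2.54 CPM in midline glia, against 148 to 290.2 CPM and 73.1 to 246 CPM in lateral glia. The early glial gene gcm2, a relative of the gcm used to choose lateral glia, was lower by log2 -5.10 ± 0.55, the receptor gene moody, which acts at the blood-brain barrier, by -1.86 ± 0.29, and the fibroblast growth factor receptor gene htl by -3.32 ± 0.38. Without late replicate 1, 179 genes were called higher and 181 lower, and without late replicate 2, 274 and 223. Without the library block, 100 and 55 genes were called.

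The stage comparison asked how midline glia differed between early and late organogenesis. Of 5665 genes tested with edgeR on the members' sums, 270 (4.77%) were higher and 44 (0.777%) lower at stages 13-16, with a median log2 difference of 0.00 over all genes. Among the genes that fell were D, rho, vn and Pvf3, and among those that rose were zyd, Fas2 and Fas3. Without the called doublets, which removed 23 of 74 early and 102 of 268 late members, 4 genes were called higher (nur, CG13159, toc and CG14756) and 1 lower (CG10035), with 561 of 4227 genes at an unadjusted p under 0.05. All 194 of the 314 called genes that were still tested then kept their direction. Stage cannot be told apart from the collection and its temperature, which differed between the stages. Differences between the late libraries cannot be told apart from the age of their embryos.

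Pvf3, a ligand gene of Pvr, stood at 2366 and 2585 CPM early and at 638 and 634 CPM late (log2 -1.88 ± 0.36, edgeR adjusted p = 0.024), and in other cells at 142 to 204 CPM. D fell from 1065 and 1103 to 314 and 431 CPM (log2 -1.48 ± 0.33, edgeR adjusted p = 0.037) and rho from 1461 and 901 to 268 and 458 CPM (-1.65 ± 0.37, 0.038). vn, an EGF receptor ligand gene, fell from 149 and 91.4 to 39.7 and 36.5 CPM (-1.64 ± 0.37, 0.041). For all 4 genes the stages did not overlap, and all 4 calls were lost without the called doublets (edgeR adjusted p = 0.081 to 0.11), where the log2 differences were -2.03 for Pvf3, -1.58 for D, -1.88 for rho and -1.93 for vn. The early replicate 2 level of rho came mostly from a single member with 121 UMIs of it, and no other member there held over 12. After thinning, D was at -1.30 and not called (edgeR adjusted p = 0.059). Left-out libraries ended the calls for Pvf3 (early replicate 2, edgeR adjusted p = 0.076), D (early replicate 2, 0.11, and late replicate 2, 0.073), rho (early replicate 1, 0.083, and early replicate 2, 0.051) and vn (early replicate 1, 0.14, and late replicate 2, 0.24).

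The 10 largest falls were CG10035, CG8654, gsb, CG13454, Kank, Mcm3, trbl, Pvf3, Ama and Chrac-14. CG10035 fell from 130.4 and 150.1 to 7.95 and 7.10 CPM (log2 -4.16 ± 0.42, edgeR adjusted p = 0.0041), while other cells fell in step from 304 and 278 to 10.5 and 20.9 CPM. Kank, an ankyrin-repeat gene, fell from 533 and 796 to 147 and 148 CPM, a call that was just lost without late replicate 2 (edgeR adjusted p = 0.051). gsb, a Pax-family segmentation gene, owed its call to early replicate 1 (130.4 CPM against 19.6 CPM in early replicate 2), without which it stood at log2 -1.12. A UMI of gsb was present in 13 of 74 early members, and 45.2% of its early UMIs were in 1 member. For CG8654, at 83.8 and 19.6 CPM early, 29.3% of the early UMIs were in 1 member. All 10 DNA replication genes tested had negative log2 differences, with a median of -1.53, and Mcm3 and CycE passed the test. Mcm3 was not called without early replicate 2 or late replicate 1 (edgeR adjusted p = 0.064 and 0.054), and CycE was not called without early replicate 1 or late replicate 2 (0.088 and 0.18) or after thinning (log2 -0.54, 0.82). The summed level of the list was 1279.7 and 803 CPM early and 216 and 496 CPM late in the members, and 1073, 1079, 356 and 586 CPM in other cells. trbl was not called after thinning (log2 -1.49, edgeR adjusted p = 0.27). None of 10 mitosis genes was called (median -1.01), and stg, which encodes the Cdc25 phosphatase String, stood at 612, 770.3, 502 and 1294 CPM. Chrac-14 was not called with any of the 4 libraries left out.

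The 10 largest rises, Osi6, ImpL1, Jhbp1, CG9932, CG13631, Osi7, CG8888, CG43799, Msr-110 and CG11905, had no UMI in any early member. Their rises were therefore lower bounds against 3 UMIs over the joined early members (2.96 CPM), from at least 31.7-fold (CG11905) to at least 142-fold (Osi6). Osi6 and Osi7, Osiris-family genes of cuticle-forming epithelia, stood at 146 and 526 CPM and at 71.5 and 164 CPM in late members, and Osi6 was at 1265 CPM in other cells of late replicate 2. Osi6, ImpL1 and Osi7 were above other cells in late replicate 1 but below them in late replicate 2 (ImpL1 358 against 647 CPM). CG13631 (49.0 and 245 against 70.3 and 340 CPM) and CG11905 were below other cells in both late libraries. CG43799 stood at 26.5 and 155 CPM in late members, 68.4 and 66.1 CPM in other late cells and 1692 and 1949 CPM in late plasmatocytes. Jhbp1, CG9932, CG8888 and Msr-110 were above other cells in both late libraries. Jhbp1, a juvenile hormone binding protein gene, stood at 98.0 and 420.1 CPM in late members, 19.0 and 29.5 CPM in other late cells and 291 and 248 CPM in late lateral glia. Single members held much of this RNA: 159 of 268 late members held a UMI of Osi6 but 63.1% of its late UMIs were in 1 member, and CG8888 was present in 6 of 268 late members. None of the 10 was called without the called doublets (edgeR adjusted p = 0.072 to 0.10 for the 6 that were tested).

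Of the list genes that rose, zyd is a calcium exchanger gene of cortex glia and 1 of those that chose the lateral glia. It stood at 3.49 and 0 CPM early and at 193 and 232 CPM late (log2 6.25 ± 0.56, edgeR adjusted p = 0.0041). Of 268 late members, 84 held a UMI of zyd. Fas3 rose from 201 and 137 to 1760 and 819 CPM and Fas2, an axonal adhesion gene, from 157 and 65.3 to 404 and 1422 CPM (log2 3.05 ± 0.52 and 2.96 ± 0.58). Other cells stood at 533 to 913 CPM of Fas3 early and 1352 to 1897 CPM late, and the stage difference in midline glia was larger than in other cells for both (interaction log2 1.73 for Fas3 and 2.07 for Fas2). Their calls were lost without early replicate 2 (edgeR adjusted p = 0.062 and 0.078), and 26.9% of late Fas2 UMIs were in 1 member. skl, a death-promoting relative of hid, rose from 15.1 and 26.1 to 76.8 and 74.6 CPM and was no longer called without early replicate 1 (edgeR adjusted p = 0.20). sli, at a log2 difference of -0.02 ± 0.40, and hid, at 0.93 ± 0.55, were not called between the stages.

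**Figure D3:**
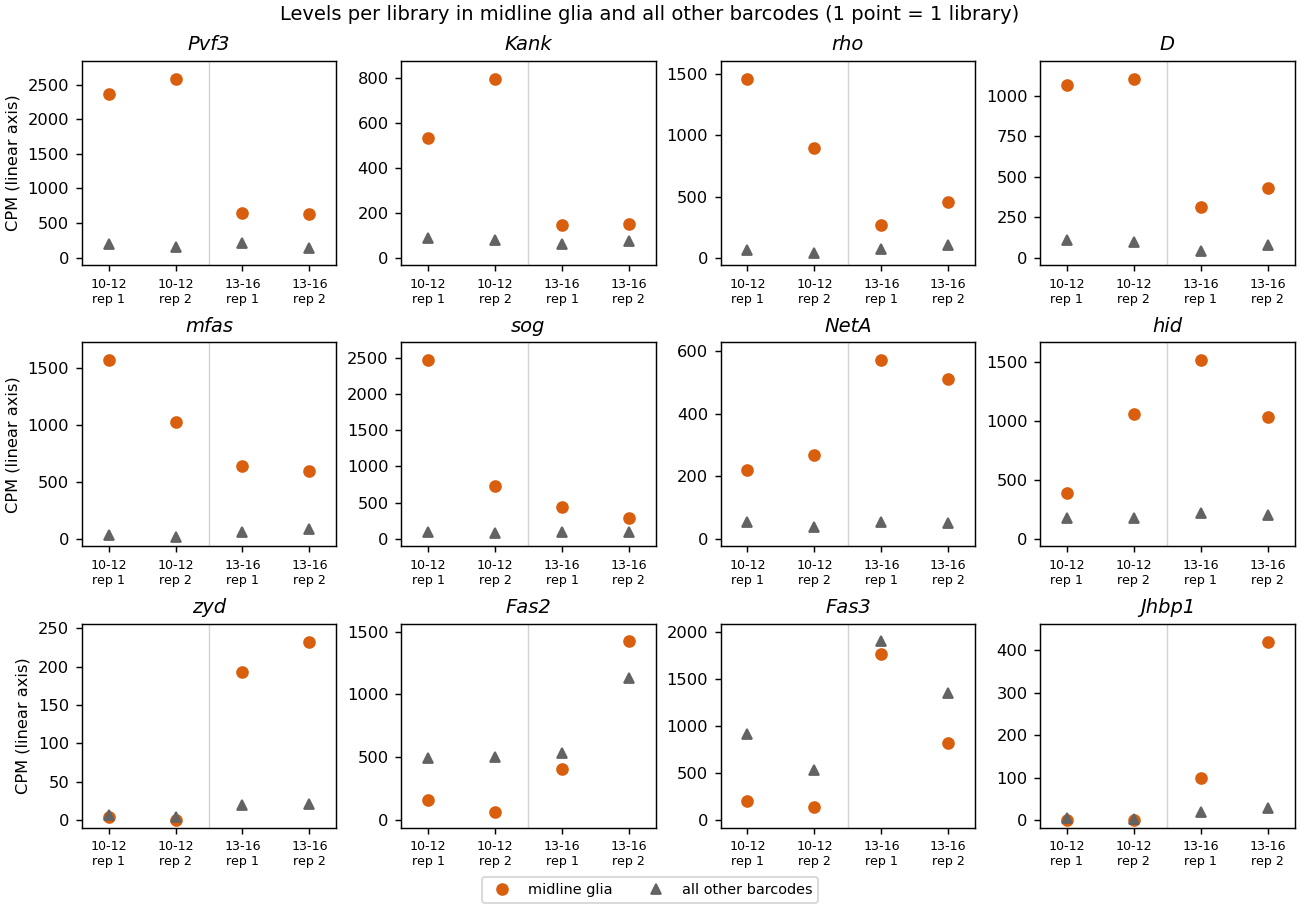
Points give the CPM (linear axes from 0) of 12 genes in midline glia (circles) and all other passing barcodes (triangles), 1 point per library, with early libraries on the left. Pvf3 in midline glia stood at 2366 and 2585 CPM early and at 638 and 634 CPM late, while zyd was at 3.49 CPM or less early and at 193 and 232 CPM late.

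Whether the stage change in midline glia differed from that in other cells was tested as an interaction in the same edgeR fit of both classes. It was called for 152 of 9667 genes (1.57%) with a larger rise or smaller fall in midline glia and for 111 (1.15%) with a larger fall or smaller rise. Of the 270 genes called higher late, 82 (30.4%) also passed this test in the same direction, and of the 44 called lower, 8 (18.2%) did. Both tests use the same sums of the members, so that this overlap is not independent support. Of the 270, 43 (15.9%) had no UMI in any early member. Pvf3 differed by log2 -1.90, rho by -2.51, vn by -1.64 and zyd by 4.56, whereas D, at -0.58 (edgeR adjusted p = 0.29), and CG10035, at -0.05 (1.0), were not called. mfas and sog, which were not called between the stages (edgeR adjusted p = 0.19 and 0.086), differed by -2.37 and -2.11.

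RNA typical of other cell types moved with stage in the members. Of 7 muscle genes, 6 rose in late members (median log2 4.09), and 5 of the 7 were lower than in other cells. Their summed level was 108, 124, 438 and 587 CPM in midline glia, 231, 45.3, 1083 and 1676 CPM in other cells, and 53.0, 39.5, 392 and 580.3 CPM in lateral glia. Of 4 tested epidermal genes, 3 (knk, serp and verm) also rose, with summed levels of the list of 191, 248, 322 and 409 CPM in the members against 374, 236, 548 and 925 CPM in other cells. The part of these RNAs in the other stage differences was not tested.

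Among 6 plasmatocyte genes, the defining He and Hml were at 0 in every member, and the summed level was 51.2, 19.6, 70.2 and 198 CPM against 1827 to 2194 CPM in plasmatocytes. Ppn and SPARC, basement membrane genes that plasmatocytes express, rose late (log2 5.31 ± 1.01 and 4.93 ± 1.12) and stood at 6.99, 13.1, 75.5 and 581 CPM and at 3.49, 13.1, 34.4 and 284 CPM, highest in late replicate 2, where the plasmatocyte genes were also highest. Ppn was at log2 2.98 after thinning. SPARC was no longer called without early replicate 2 (edgeR adjusted p = 0.051) or late replicate 2 (0.078). The contribution of plasmatocyte RNA was not tested.

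The 9 neuronal genes had summed levels of 2239, 705, 538 and 1308 CPM in the members, mostly from elav (1411, 313, 215 and 584 CPM) and fne. Other cells held 661, 398, 764 and 1185 CPM of the list and lateral glia 1356, 902, 1113 and 3599 CPM, so that the members stood above other cells in both early libraries and late replicate 2. Some deep members met the rule with little wrapper and much elav: 1 of 72915 UMIs held 4 UMIs of wrapper and 340 of elav, and 1 of 59307 UMIs held 0 and 237. Other members held much Ect3 and vvl but little sli. In late replicate 2, 1 of 66226 UMIs held 360, 459 and 16 UMIs of these genes, and 1 of 18743 UMIs held 140, 124 and 1. The rule therefore does not show that every member was a glial cell, and the part of neuronal RNA in the results was not tested. nSyb and brp, genes of synaptic vesicle release and active zones, were at 12.2 CPM or less in each library, and in early members nSyb was at 0. Against other cells brp alone of the 9 was called, and it was lower. mira, which encodes an adaptor of dividing neuroblasts, was higher in midline glia at 474, 333, 326 and 317 CPM (log2 1.25 ± 0.18, edgeR adjusted p = 0.0021, and log2 0.81 after thinning), and the neuroblast gene wor was lower. gcm and CG6218 (Nagk), 2 of the lateral glia genes, were lower than in other cells by log2 -2.12 ± 0.31 and -1.67 ± 0.24 (CG6218 -1.02 after thinning), and zyd and nrv2 were higher. For zyd this difference was reversed in the early libraries alone, at -1.20 and not called, and it was lost without late replicate 1 or late replicate 2 (edgeR adjusted p = 0.072 and 0.078).

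**Figure D4:**
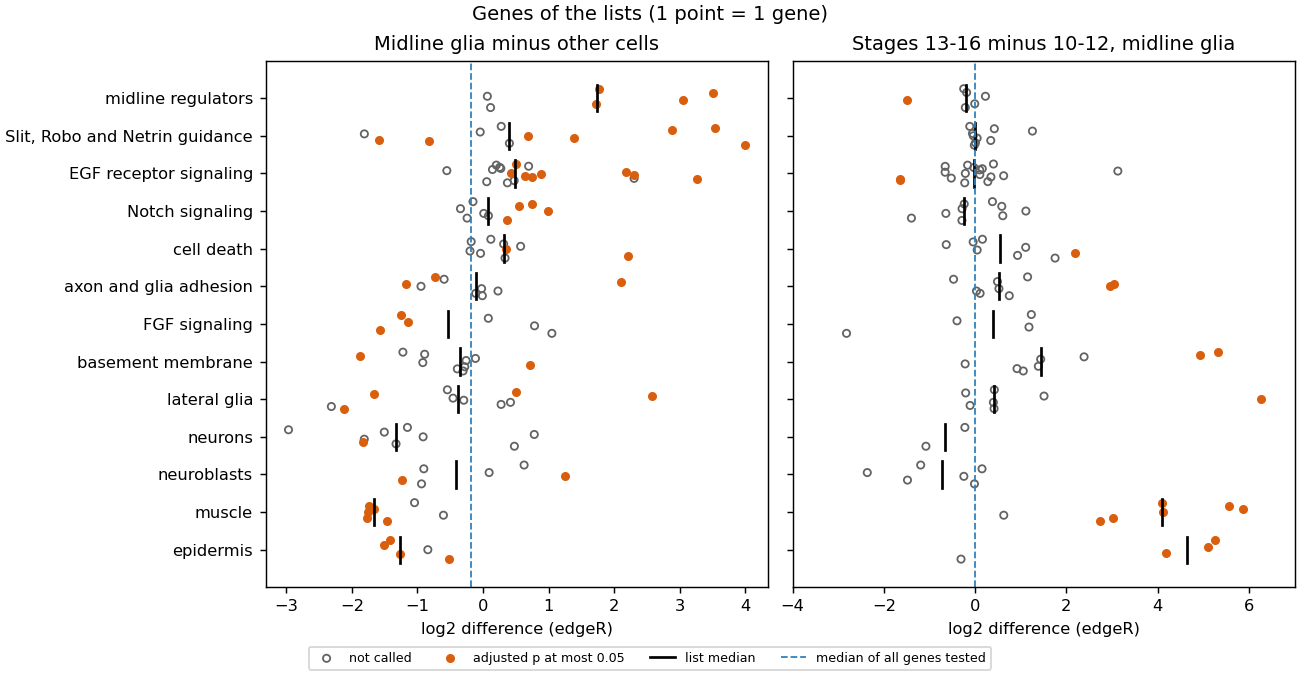
Each point is 1 gene of a list, with its log2 difference between midline glia and other cells (left) or between late and early midline glia (right); filled points passed an adjusted p of 0.05, black bars mark list medians, and the dashed line marks the median of all genes tested. The midline regulators (median 1.75, left) and the muscle genes (median 4.09, right) lie to the right of the median of all genes.

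Midline glia were not uniform for the segment polarity gene en (engrailed), which is known to mark posterior midline cells. en and its neighbor inv (invected) were higher in midline glia than in other cells (log2 1.39 ± 0.29 and 1.85 ± 0.27). In early replicate 2, en stood at 26.1 CPM in the members against 40.3 CPM in other cells and inv at 19.6 CPM in both, and after thinning to 1500 UMIs en was not called (log2 0.59, edgeR adjusted p = 0.28). en had a UMI in 21 of 58, 3 of 16, 18 of 116 and 53 of 152 members. The members with en were deeper in every library, with medians of 18892, 9492, 7915 and 18877 UMIs against 3916, 4166, 3695 and 5505 UMIs. They held less wrapper, at 749.6, 583, 1322 and 1688 CPM against 1188, 1772, 1815 and 2362 CPM in members without en. inv was at 245, 0, 188 and 177 CPM in the members with en and at 11.4, 22.9, 18.8 and 23.1 CPM in the others. Since wrapper chose the members and depth decides whether en is seen, these values are a description and were not tested.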

How the data were processed

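Dissociated whole OregonR embryos were profiled with the 10x Genomics single cell 3′ assay in 4 libraries. The authors processed reads with Cell Ranger 6.1.2 against the FlyBase genome (release given in the study's methods) and deposited UMI counts per gene and barcode, unnormalized, for 17875 genes listed by identifier, 17800 of which received a symbol from a reference table. Coordinates come from the BDGP6.54 annotation, matched by identifier. The members and lists were chosen with earlier results of these data known, and members are barcodes, not clusters.

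UMIs of each class were summed per library, and the library was the replicate. Log2 differences came from edgeR (version 4.0.16, under R 4.3.3) by its quasi-likelihood F test after filterByExpr and TMM scaling, with p adjusted by Benjamini-Hochberg over every gene tested and calls at 0.05, with SE taken as the difference divided by the square root of F. The genes used by a rule received no p. No library block entered the stage fit. p-values measure the spread between libraries. DESeq2 1.42.0 was an alternative. The code was tested on simulated data. Python 3.11.15, numpy 2.4.6, scipy 1.17.1, pandas 2.3.3, scikit-learn 1.9.0 and matplotlib 3.10.9 were used.

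Doublets were called from the 50 nearest neighbors among real and simulated barcodes in 30 components of 2000 variable genes, at 0.8% per 1000 barcodes. This caller was used in place of Scrublet, and calls were left in except where stated. Named genes were, per comparison, the 10 largest rises and 10 largest falls among called genes with at least 50 UMIs in the higher group and no overlap (within a library for paired classes). List genes, with 2 to 6 per list by value, were added. CPM sums weigh members by depth, and a level of 0 allows up to 3 UMIs. Plasmatocytes (868 barcodes) held at least 3 of Pxn, Sr-CI, crq, NimB4, He and Hml at 0.1% of UMIs or more. Alternatives were size factors, filters, thinning, stricter rules and left-out libraries.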

Additional observations from a re-analysis of the deposited data

Results flagged for a closer look

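The difference between midline glia and other cells changed with stage for 13 of the genes named in that comparison (edgeR interaction, adjusted p at most 0.05 over 9667 genes), here given as the log2 difference at stages 13-16 minus that at stages 10-12. It was smaller late for rho (-2.51), mfas (-2.37), CG31145 (-2.34), sog (-2.11), Pvf3 (-1.90), tbc (-1.51), vir-1 (-1.18), Tl (-0.93), sty (-0.71) and vvl (-0.66). It was larger late for zyd (4.56), NetA (1.08) and hid (0.82). The members stood above other cells for 12 of the 13 in every library, and zyd was below other cells in both early libraries.

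Barcodes under 1500 UMIs, which entered no comparison, held the 5 selecting genes at a summed 65.6 and 48.9 CPM in the stage 10-12 replicates and at 87.7 and 142 CPM in the stage 13-16 replicates. Passing barcodes other than members held 45.4, 32.7, 61.5 and 79.7 CPM. The members had been taken out of the passing barcodes but not of the shallower ones.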

How the results depend on the processing

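The proportion of midline glia stayed higher late under all alternatives. Stage calls (270 higher, 44 lower) were 160 and 15 with DESeq2, 624 and 155 with no filter on low counts, 158 and 14 with at least 4 of 5 genes, 52 and 23 after thinning to 1500 UMIs, 4 and 1 without called doublets, and 199 to 433 and 32 to 64 with a library left out. The replicate block gave 298 and 36 (same-numbered libraries correlated at r = -0.169 in their deviations and were not taken as pairs), and the crossed pairing, added after seeing the data, 469 and 147. Against other cells (688 and 1391), thinning gave 219 and 354, no replicate block 208 and 216, stages 10-12 alone 829 lower, and a left-out library 449 to 545 and 917 to 1378. Against lateral glia (417 and 426), thinning gave 263 and 180, no replicate block 100 and 55, no filter 1104 lower, and a left-out library 179 to 326 and 181 to 375. The causes of these shifts were not tested. Of the genes named in the comparison with other cells, zyd alone was reversed, at -1.20 in stages 10-12 alone. Among named calls, 29 of 33 between the stages, 22 of 49 against other cells and 7 of 37 against lateral glia missed the threshold under at least 1 alternative. Early replicate 2 held the fewest members (16) and member UMIs (153190), and its effect on what could be detected was not tested. Doublets were called by another caller than the one planned.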
